A study of Drosophila melanogaster with 13 samples.

Results

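The regions described here are the binding regions shared by CREB and CRTC that lie just upstream of a transcription start site (TSS) in the nuclei of mushroom body (MB) neurons of Drosophila. They were chosen by the distance to the TSS that the authors list for each region, from 500 bp to 1 bp upstream. Of the 4995 CREB/CRTC regions, 1282 met this rule (25.7%, 95% Wilson interval 24.5 to 26.9%), and they belonged to 1096 of the 2833 genes named for all regions. The distance therefore defines the group and is given below only as a description.

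CREB is a DNA-binding transcription factor that is activated by phosphorylation when cAMP or calcium signalling rises. CRTC is a coactivator that stays in the cytoplasm when phosphorylated, enters the nucleus after dephosphorylation and joins CREB on DNA. The sequence just upstream of a TSS is the proximal promoter, where cAMP response elements are often found, and the pair is known in flies and mammals for its roles in memory and in energy metabolism. In the fly, the MBs hold the Kenyon cells that store olfactory memories.

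The labels give 13 libraries from strain CS10. Antibodies to CREB or to CRTC were each used on 3 libraries from naive flies and on 3 libraries from flies 1 day after spaced training, in which an odour is paired with shocks over repeated, separated sessions, and the input DNA, from naive flies, was 1 further library. FLAG-KASH, a tagged nuclear membrane protein by which the nuclei were pulled down, was expressed from the MBp-LexA driver, whose labelling of the MBs is uneven and faint in α'/β' neurons. Each preparation pooled many flies, and both antibodies were made in the laboratory. The age of the flies is not given in the sources used here. Sites present in at least 2 of 3 replicates were combined by the authors into 1 list per protein. The study introduces these sites as binding 1 day after spaced training. Whether naive libraries entered the lists is not stated in the sources used here. Because the lists combine replicates, the values below have no replicate error and the depth behind each site is unknown. Naive and spaced-trained flies are not compared. Regions share the same libraries and are not replicates, so no test was made, and the differences between groups of regions are descriptions. The purity of the nuclei cannot be checked from binding sites, which do not measure expression. Positions are those of the dm3 build, whose sequence was not used here, and no binding sequence is shown.

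The regions were crowded against the TSS. The median distance from the nearer edge of a region to the TSS was 67 bp, and 516 regions (40.2%) lay within 50 bp, 794 (61.9%) within 100 bp and 1003 (78.2%) within 200 bp. The outermost class, 451 to 500 bp, held 33 regions. On the other side of the TSS, 853 regions lay 1 to 500 bp downstream, with a median distance of 93 bp, and 305 of them were within 50 bp. A further 1051 regions had a listed distance of 0 and are described as covering the TSS. The regions just upstream were thus the largest of these 3 groups.

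**Figure D1:**
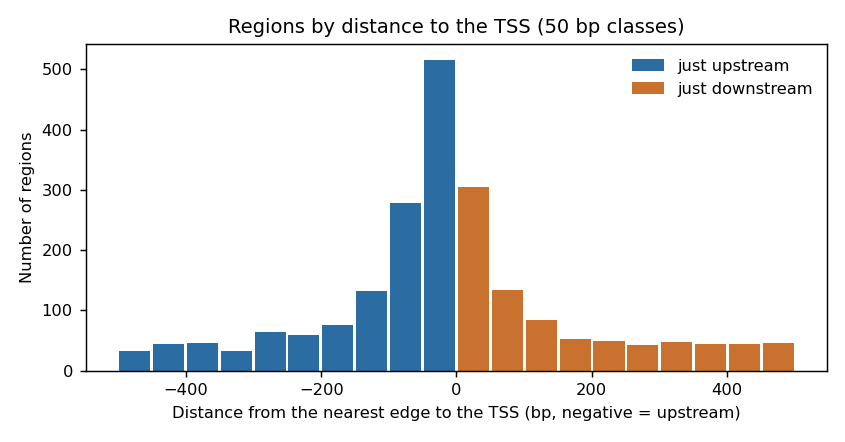
Number of CREB/CRTC regions in classes of 50 bp by distance from the nearer edge to the TSS, upstream (negative) and downstream. The class next to the TSS holds 516 regions upstream and 305 downstream; regions with a distance of 0 are not drawn.

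At the inner limit, 17 regions were listed 1 bp from the TSS, among them that of jagn with a CRTC score of 1.55 and that of sm with 18.1. Just inside the outer limit were the regions of numb at 498 bp (CRTC score 8.32) and of CG5065 and pigs at 497 bp (2.97 and 4.35). Just outside were those of E2f, aos and Blimp-1 at 501 bp, with CRTC scores of 9.73, 6.21 and 3.73. The scores on either side of the limit overlapped.

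Each site has a score from the authors' peak caller, in which the ChIP DNA is set against input DNA. The scale of the score is not stated, so it serves only to rank sites within a list. The CRTC score of the regions just upstream had a median of 4.97 (quartiles 3.31 and 8.40), against 4.66 over all regions, 4.66 for regions covering the TSS and 3.64 for regions just downstream (quartiles 2.64 and 5.52). With only the region nearest to a TSS kept for each gene, the medians were 4.74 just upstream and 4.79 for regions covering the TSS. This rule treats the groups unequally. It drops regions just upstream wherever the gene also has a region covering a TSS, and among regions at equal distance it keeps the highest CRTC score. The changed order therefore does not show which group scores higher. Regions 500 to 5000 bp upstream had a median of 5.01, those 500 to 5000 bp downstream one of 4.84 and those beyond 5000 bp one of 5.42. The median just upstream thus lay within the range of the distant regions. The difference was widest from their neighbours on the downstream side, and the quartile ranges of these 2 groups overlapped.

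The CREB score of a region is that of the CREB site with the nearest edge, at most 200 bp away. Its median was 4.97 just upstream (quartiles 3.17 and 9.32), 4.94 for regions covering the TSS, 3.79 just downstream and 4.61 over all regions. With 1 region per gene, under the same unequal rule, the first pair had medians of 4.86 and 5.01. Width moved with these values. The median width was 110 bp just upstream and 92 bp just downstream, and among the regions just upstream the score rose with width (Spearman's rank correlation = 0.565 over 1282 regions that share libraries). Among regions at least 100 bp wide, the median CRTC scores were 6.63 for the 754 just upstream and 4.88 for the 371 just downstream. The part of width in the remaining difference was not tested.

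**Figure D2:**
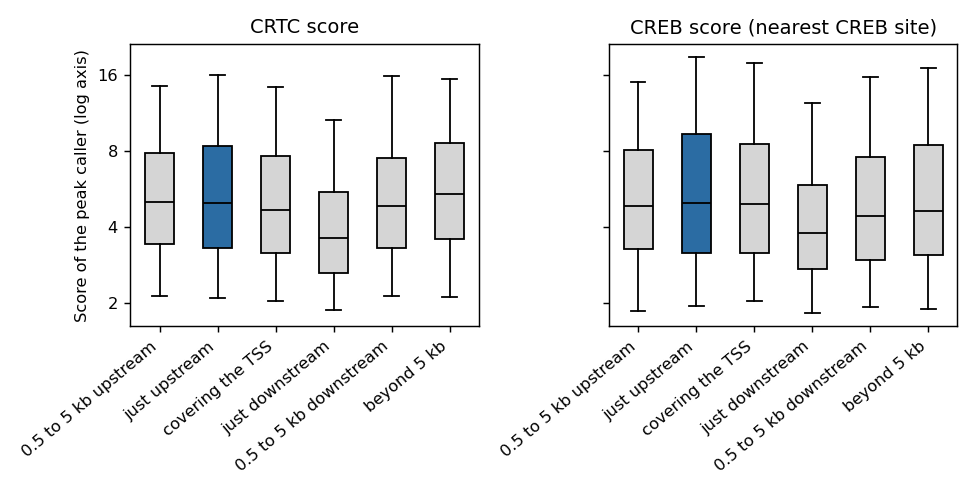
CRTC score of each region (left) and score of its nearest CREB site (right), on a log axis, by position relative to the TSS. Boxes give the median and quartiles, whiskers the 5th and 95th percentile of regions; the box just upstream (blue) has medians of 4.97 for both proteins, and the box just downstream is the lowest in each panel.

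When all regions were ranked by CRTC score and divided into 10 classes, the regions just upstream made up 21.2% of the lowest class and 33.8% of the highest, which starts at a score of 11.6. Regions just downstream went the other way, from 28.0% of the lowest class to 6% of the highest, and regions covering the TSS made up 21.6% and 21.2%. Of the 100 highest CRTC scores, 36 were among the 1282 regions just upstream, 21 covered the TSS and 5 were just downstream. High scores were also found far from the TSS, with 21 of the 100 among the 743 regions 500 to 5000 bp downstream. The rise was uneven, as the eighth class held 23.4%. Chromosome arms differed little in the share of regions just upstream, which was 24.9% on 3L, 25.1% on 2L, 25.1% on X, 26.1% on 2R and 26.5% on 3R. The small chromosome 4 had 7 of its 18 regions there.

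**Figure D3:**
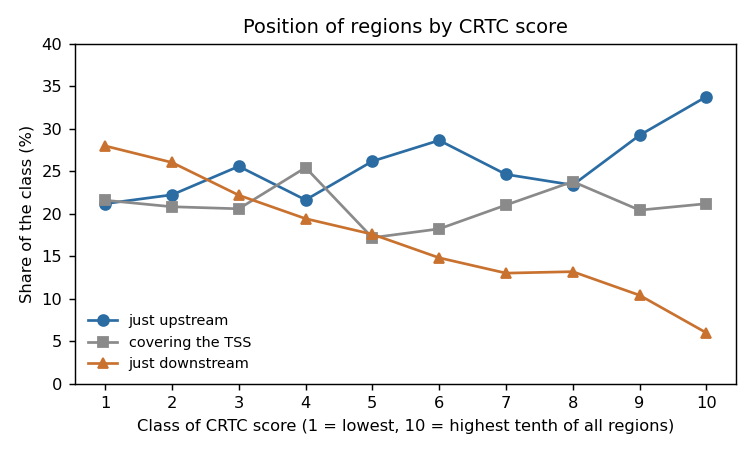
Share of regions (%) just upstream, covering the TSS and just downstream in 10 classes of CRTC score, from the lowest (1) to the highest (10) of all 4995 regions. The line for regions just upstream ends at 33.8% and that for regions just downstream at 6%.

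Within the group, the median scores did not rise or fall steadily with distance. The median CRTC score was 4.67 in the 516 regions within 50 bp of the TSS and 5.20 in the 766 regions farther out. For CREB, the medians were 4.92 and 4.99. By classes of 50 bp, the highest median CRTC score was 6.05, at 201 to 250 bp in 59 regions, and the lowest was 4.14, at 451 to 500 bp in 33 regions. Just downstream, the regions within 50 bp had a median CRTC score of 3.25 and those farther out one of 3.99.

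Each region is by definition a CRTC site within 200 bp of a CREB site, so closeness was set in advance and is no finding. A CREB site shared at least 1 listed position with 1120 of the regions just upstream (87.4%, 95% Wilson interval 85.4 to 89.1%). Sites that only meet at their listed ends are included. The interval covers the counting of regions only. This share was the lowest of all groups by position, but close to the 89.0% just downstream, whose interval (86.7 to 90.9%) overlapped. It was 94.5% for regions covering the TSS, 90.7% beyond 5000 bp and 90.7% over all regions. The other 162 regions just upstream were separated from the nearest CREB site by a median gap of 31 bp. More than 1 CREB site lay within 200 bp of 139 regions just upstream (10.8%), near the 10.2% of the regions beyond 5000 bp. The share was 5.42% for regions covering the TSS, 8.79% just downstream and 8.51% over all regions. Across the regions just upstream the CREB and CRTC scores went together, with a Spearman's rank correlation of 0.851 (n = 1282), beside 0.846 for regions covering the TSS and 0.816 over all regions. Both scores were set against the same input DNA.

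The side on which CREB lay was read from the positions alone. For 532 regions just upstream, another region of the same gene fixed the position of the TSS and so the direction of transcription. The positions had to agree to within 1 bp, or the TSS had to fall inside a region listed as covering it. The centre of the CREB site was shifted from that of the CRTC site in the direction of the TSS in 322 of them (60.5%). It was shifted the other way in 203 (38.2%), and the median shift was 8.75 bp towards the TSS. A shift in that direction can pass the TSS, so it is not a distance to it. In the 377 such regions just downstream, the CREB centre was shifted in the direction of the TSS in 54.9%, with a median shift of 4 bp. Of the 532 regions, 72 had a CREB site that covered the TSS although the CRTC site did not, and 55 of these were among the 161 within 50 bp. The rule keeps the CRTC site short of the TSS and sets no such limit on the CREB site. How much of these counts follows from that choice was not tested. Genes with a single region are not part of these counts.

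**Figure D4:**
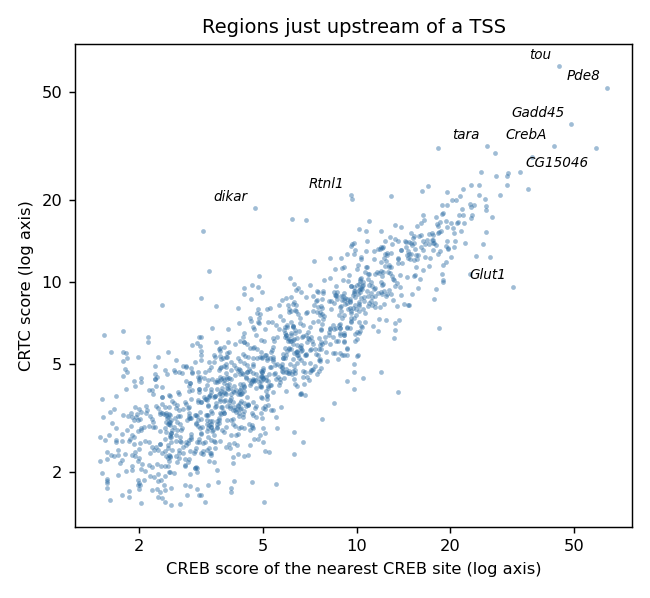
CRTC score against the score of the nearest CREB site for the 1282 regions just upstream, both on log axes, with the highest region of 9 genes named. The points rise together (Spearman's rank correlation = 0.851), and dikar, Rtnl1 and Glut1 lie to the sides of the cloud.

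The region of tou, a chromatin-associated protein, had the highest CRTC score of the group, 62.5, with a CREB score of 44.5. It lies 90 bp upstream on chromosome 2R, from 7492531 to 7492692 of dm3, and ranked as number 2 of all 4995 regions. The region of Pde8, a phosphodiesterase that breaks down cyclic nucleotides, came next with a CRTC score of 51.98, and its CREB score of 63.6 was the highest just upstream. It lies 107 bp upstream on 2R, from 19554386 to 19554550. Pde8 had a pair of weaker regions as well, 64 and 45 bp upstream, with CRTC scores of 6.63 and 6.09.

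Gadd45, a stress response gene, had a region 36 bp upstream on 2R, from 3136481 to 3136629, with scores of 38.2 for CRTC and 48.9 for CREB. CrebA, a bZIP factor that drives secretory pathway genes, had a region 56 bp upstream on 3L, from 15528311 to 15528457, with scores of 31.7 and 43.0. The region of tara, a nuclear regulator of the cell cycle and of sleep, scored 31.6 for CRTC and 26.2 for CREB at 108 bp. The zinc finger genes noc and tio had regions 17 and 27 bp upstream, with CRTC scores of 29.8 and 29.0. The first 10 were completed by CG15046 (CRTC score 31.3), C1GalTA, a glycosyltransferase gene (31.2 at 280 bp), and CG8920 (25.4 at 279 bp).

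The 10 highest CREB scores added Hsp70Aa, Mrp4, stv and Glut1. The region of Hsp70Aa, a heat shock chaperone, lay 26 bp upstream with a CREB score of 35.4 and a CRTC score of 22.0. Hsp70 genes are near-identical copies, so reads may not be assigned to 1 copy with certainty. The region of Mrp4, a transporter of the ABC family, scored 33.3 for CREB and 25.3 for CRTC. That of stv, a co-chaperone of the BAG family, scored 30.6 and 25.3. Glut1, a glucose transporter gene, stood apart. At 17 bp its region had a CREB score of 31.8, number 9 of the group, but a CRTC score of 9.63, number 239. The reverse was seen at dikar, 459 bp upstream, with a CRTC score of 18.7 (number 38) and a CREB score of 4.71 (number 679).

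At the low end were the regions of SF2, a splicing factor gene (CRTC score 1.52), CG14186 (1.53), CG8314 (1.54), jagn (1.55) and sick (1.56), with NijA tied with sick. The CREB scores of the first 5 were 2.53, 2.71, 2.04, 2.43 and 5.06. These regions were 32 to 51 bp wide, below the lower quartile of 80 bp.

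Most genes had a single region just upstream. This was so for 944 of the 1096 genes, while 124 had 2, 22 had 3 and 6 had 4. For 519 genes it was the only region listed, and 573 genes had no region elsewhere. A region covering a TSS was listed in addition for 194 genes and a region just downstream for 161. The 186 spacings between neighbouring regions of the same gene had a median of 1867 bp, and 66 were at most 500 bp. Regions of 1 gene that are farther apart than that stand before different TSSs. A separate region assigned to another gene lay within 500 bp of 20 regions. Each region is listed with a single gene symbol, so a region shared between genes would not show in this count. Members mostly had CREB sites of their own: 15 CREB sites were the nearest for more than 1 region, and 31 regions shared them.

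The 6 genes with 4 regions just upstream show both arrangements. At ps, a splicing factor homologous to mammalian Nova, the regions lie 80, 41, 109 and 52 bp upstream in the order of their positions on 3R, spread from 5243424 to 5262504, with CRTC scores of 12.3, 13.8, 16.5 and 4.76. At SNF4Agamma, the gamma subunit of the AMP-activated kinase, the first pair of regions (CRTC scores 14.6 and 7.23) lies within the same promoter at 255 and 53 bp, and the others (6.72 and 9.15) lie before TSSs farther along 3R. At Rtnl1, which encodes a reticulon of the endoplasmic reticulum, 3 regions between 4997434 and 4997915 on 2L stand in a row at 53, 172 and 409 bp, with CRTC scores of 21.0, 13.6 and 9.68. They share a single CREB site with a score of 9.61, and only the middle region overlaps it. The region farther along 2L had a CRTC score of 5.54. The regions of Dys, the fly dystrophin, had CRTC scores of 5.69, 3.24, 1.73 and 4.66. For cnc, a bZIP factor of the oxidative stress response, they were 8.11, 3.17, 3.00 and 2.65, and for CG5065 they were 4.65, 2.97, 5.33 and 2.45.

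Gene lists were set beside the share over all genes, 38.7% of which had a region just upstream. Since genes with many regions have more occasions to have such a region, the number of each list's regions is given too, and 25.7% of all regions lay just upstream. The lists describe only genes present in the table, and no list was tested.

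The list of CREB pathway genes and activity-regulated transcription factors had such regions at 7 of 12 genes, with 10 of 39 regions. CrebB-17A, the gene of CREB itself, had regions 202 and 57 bp upstream on X, with CRTC scores of 8.79 and 2.52 and CREB scores of 6.17 and 4.56. The region of nej, which encodes the coactivator CBP, lay 38 bp upstream (CRTC score 9.44, CREB score 10.4). The pair of regions of kay, the fly Fos, scored 6.09 and 8.97 for CRTC. Together with CrebA these are the 4 genes of the list with the highest CRTC score, and Atf-2, Mef2 and sr were the others. The activity-regulated gene Hr38 had no region just upstream.

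Signalling genes of cAMP, calcium and learning had such regions at 12 of 28 genes and at 16 of 56 regions (28.6%). Their median CRTC score was 6.85, beside 5.29 over all regions of the list. The kinase gene sgg, the fly GSK-3, had 3, with CRTC scores of 19.999, 8.23 and 6.78. The casein kinase gene gish had a region 387 bp upstream with a CRTC score of 17.4. The cAMP phosphodiesterase gene dnc, known from a learning mutant, had regions 93 and 47 bp upstream with CRTC scores of 8.33 and 6.92, and klg, a cell adhesion gene used in long-term memory, had a region with a score of 7.95. The adenylyl cyclase gene rut, the protein kinase A gene Pka-C1 and the adhesion gene Fas2 had regions only elsewhere.

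Nuclear receptors had the highest share of the lists of at least 10 genes, 13 of 16 genes (81.3%). By regions the share was 16 of 71 (22.5%), below that of all regions, as these genes had 4.44 regions each against 1.76 over all genes. The region of ftz-f1 lay 26 bp upstream with a CRTC score of 20.2 and a CREB score of 9.67. Eip75B, induced by ecdysone, had 3 regions with CRTC scores of 5.72, 12.1 and 6.10. Those of Eip78C and Hnf4 scored 9.18 and 7.58. With a limit of 200 bp the count was 9 of 16, beside 32.2% of all genes.

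Ion channel genes had such regions at 12 of 21 genes and 12 of 35 regions (34.3%). The scores were low, with a median CRTC score of 3.75, beside 4.71 over all regions of the list. The highest were at GluClalpha, a glutamate-gated chloride channel (12.2), Rdl, a GABA receptor (8.51), Hk, a potassium channel subunit (7.77), and SK, a calcium-activated potassium channel (6.28). Genes of synaptic vesicles and release had such regions at 5 of 18 genes and at 5 of 28 regions (17.9%), with CRTC scores of 5.28 at Rbp, 4.91 at brp, 4.38 at VAChT and 3.63 at synj. Both Rbp and brp encode proteins of the active zone. Genes of MB and neuronal identity had them at 9 of 14 genes and at 12 of 28 regions (42.9%). Their median CRTC score was 4.26, below the 5.55 over all regions of the list. The highest scores were at chinmo (10.7), a factor of neuronal temporal fate, trio (9.73, with 2.10 at its other region), dac (9.28) and dnc. The transcription factor genes ey and toy, which act in MB development, were also among the 9.

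Chromatin regulators had such regions at 7 of 23 genes and at 8 of 77 regions (10.4%), the lowest share of regions among lists of at least 10 genes. The scores of these few were high, with a median CRTC score of 9.37, but the list scored high elsewhere too. Over all its regions the median was 6.35, against 4.66 over the regions of all genes. After dikar, the highest were at ash2, a trithorax group gene (16.8 at 22 bp), and ph-d, a Polycomb group gene (11.6 at 175 bp), followed by nej. RNA-binding proteins had such regions at 11 of 32 genes and at 19 of 73 regions, among them bru-2 (16.6), Syp (14.3), how (12.5 for CRTC and 24.1 for CREB) and ps.

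Cytosolic ribosomal proteins had such regions at 11 of 36 genes and at 11 of 39 regions, with a median CRTC score of 2.41, close to the 2.46 of all their regions, and the highest were at RpS27A (4.46), RpL32 (4.35), RpL10Ab (3.14) and RpLP2 (2.69). Translation factors had them at 4 of 15 genes and at 5 of 20 regions. The highest of these was at Thor, the inhibitor of cap-dependent translation (11.4 at 13 bp), followed by its binding partner eIF-4E (6.998), Ef1alpha100E (3.00 and 2.60) and Ef1gamma (1.73). Membrane traffic genes had the lowest share of genes among lists of at least 10 genes, 5 of 29 (17.2%), with 6 of 46 regions. Their regions scored 15.2 at Vha68-2, a subunit of the vacuolar ATPase, 9.40 and 3.85 at Rab5, 8.28 at Rab26, 3.15 at VhaAC45 and 2.15 at Vps33B. Circadian genes had them at 4 of 12 genes and at 8 of 42 regions (19.0%). Beside sgg these were Pdp1 (4.76, 6.42 and 6.86), CkIIbeta (3.396) and vri (3.01). Of the smaller lists, the respiratory chain had 1 of 5 genes (Cyt-c-p, 3.26), mitochondrial ribosomal proteins 0 of 3 and glial markers 2 of 6 (moody with 14.2 and loco with 3.98). No proteasome subunit was among the 2833 genes.

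**Figure D5:**
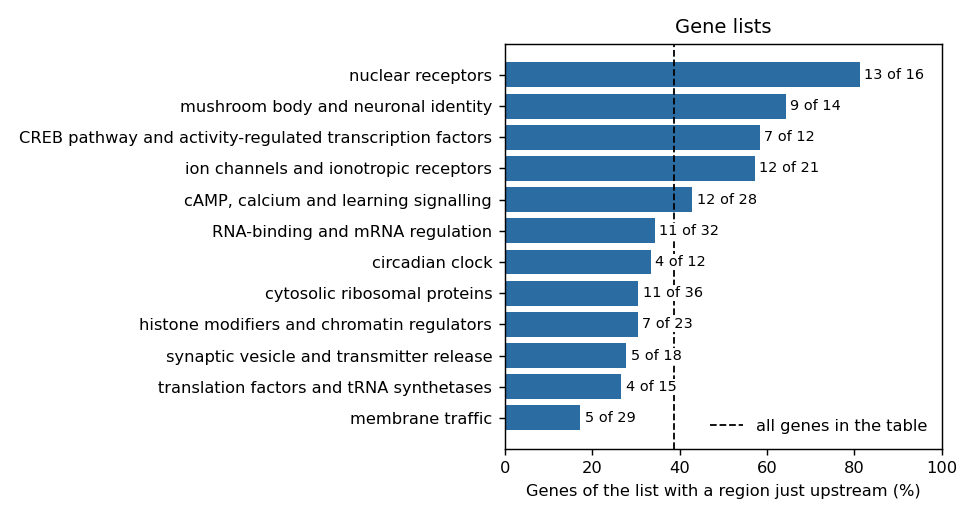
Share of genes (%) with a region just upstream in each list of at least 10 genes, with the number of genes beside each bar and the share over all 2833 genes (38.7%) as a dashed line. Nuclear receptors (13 of 16) are at the top and membrane traffic genes (5 of 29) at the bottom.

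Of the 10 candidate genes the study selected, 5 had a region just upstream, beside 38.7% of all genes. The study picked them by histone acetylation and CREB/CRTC binding, in a pilot and then in the replicated libraries, so the count is not independent evidence of binding. Mob2, an activator of NDR kinases, had regions 24 and 151 bp upstream on 3L with CRTC scores of 16.5 and 10.9 and CREB scores of 16.1 and 12.6. CG42388, listed by RefSeq as Nost, had regions 94 and 31 bp upstream on X with CRTC scores of 12.6 and 9.999. The region of aop, a repressor of the ETS family, lay 56 bp upstream on 2L with a CRTC score of 8.76, and 3 CREB sites lay within 200 bp, the nearest with a score of 3.17. Eip71CD, listed by RefSeq as the methionine sulfoxide reductase MsrA, had a region 44 bp upstream on 3L (6.53 for CRTC and 10.1 for CREB). The LIM-only gene Bx had a region 71 bp upstream on X with scores of 5.38 and 6.88, near the median for CRTC. For comparison, the regions of elav, which encodes an RNA-binding protein of neurons, 22 and 363 bp upstream, were below both medians, with CRTC scores of 4.62 and 3.82 and CREB scores of 2.75 and 2.51. HDAC6, trx, Hmt4-20, Smr and beta-Spec had regions only elsewhere.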

How the data were processed

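ChIP-seq of CREB and CRTC in purified MB nuclei was analysed from the authors' deposited lists. The authors mapped MiSeq reads to dm3, called peaks against input DNA by the PICS and ERD algorithms (Strand NGS software), and retained those of at least 2 of 3 replicates. The authors' deposited lists give a score for each of 7243 CREB sites and 5990 CRTC sites, and a false discovery rate, read here as a q-value by the authors. A further deposited table lists 4995 CRTC sites within 200 bp of a CREB site with gene symbol and distance to the TSS. How genes were assigned is not given in the sources used here. This table also holds fold changes and adjusted p-values of the authors' own DESeq2 comparison of spaced-trained and naive flies, which were not used. The deposited lists hold no counts and no values per sample, and read totals the study gives elsewhere were not used here.

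From these lists, regions were grouped by distance. The nearest CREB site was found edge to edge, and width is end minus start. The TSS was placed from the distances of other regions of the same gene. Python 3.11.15, NumPy 2.4.6, pandas 2.3.3, SciPy 1.17.1 and Matplotlib 3.10.9 were used, and the search was checked on simulated positions. Shares have 95% Wilson intervals, which cover counting only. Symbols follow the deposited table: 895 of 1096 are RefSeq symbols of Release 6 and 196 are synonyms.

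The group of regions and the gene lists were chosen with earlier results of these data known. Entries that do not belong to the ribosomal, proteasome and MB lists were taken out after the genes were seen. Named are the genes of the 10 highest and 5 lowest CRTC scores and the 10 highest CREB scores, genes with at least 4 regions, the 10 selected genes and elav, up to 4 genes of each list by CRTC score, and regions at the distance limits. Atf-2, Mef2, sr, Hr38, rut, Pka-C1, Fas2, ey, toy, NijA and Vps33B were named after their values were seen. The promoter motifs planned were not analysed, since no promoter sequence was used here.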

Additional observations from a re-analysis of the deposited data

How the results depend on the processing

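No paired analysis was possible because the lists combine the replicates, and no replicate could be left out for the same reason. Of 23 alternatives, 10 stayed within 1.5 times a count or within the counting interval of a share or median. The number of regions just upstream was 754 among regions at least 100 bp wide and 787 among the higher-scoring 50% of CRTC sites. Their share of all regions was 20.1% with a limit of 200 bp, 31.1% with 1000 bp, 27.0% among wide regions and 27.9% among the higher-scoring 50%. It was 30.2% with 1 region per gene, where regions covering the TSS made up 35.2%. That order follows from the setting, since a gene with a region covering a TSS always keeps it and loses any just upstream. The median CRTC score was 6.63 among wide regions. The median CREB score was 6.73 among wide regions and 5.65 with overlapping CREB sites only. The share that overlapped a CREB site was 71.5% when 50% of the CRTC site had to be covered, 91.9% among wide regions and 94.0% among the higher-scoring 50%. By construction these settings keep fewer regions or shift a limit, and the cause was not tested further. Over the lists, 98 genes had a region just upstream, against 86 with a limit of 200 bp and 107 with 1000 bp. The CREB centre was shifted in the direction of the TSS in 62.4% when regions covering the TSS were not used to place the TSS. This alternative was chosen after seeing the data. The share of genes with a promoter motif was not run. The depth behind single sites is unknown, so weak sites cannot be graded by their counts.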

Other observations

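Heat shock and sugar supply genes were put together after high scores were seen at Hsp70Aa, stv, Pgk and GlyP, so their counts support nothing and are given as values. Of 14 heat shock and chaperone genes in the table, 10 had a region just upstream, with 13 of their 21 regions there. Over all genes the share was 38.7%, and over all regions it was 25.7%. The small heat shock genes of chromosome 3L stood close together: Hsp22 had regions 267 and 34 bp upstream with CRTC scores of 8.73 and 5.05, Hsp26 a region 238 bp upstream with 7.11, and Hsp27 regions 253 and 64 bp upstream with 9.53 and 4.42. Hsp70Ba had a region 91 bp upstream with a CRTC score of 12.7. The constitutive chaperone genes Hsc70-3 (6.24 and 8.89) and Hsc70-4 (4.42) had such regions too, and Hsp83 had a region only across its TSS, with a score of 2.61.

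Of 9 genes of glycolysis and sugar supply, 4 had a region just upstream, beside 38.7% of all genes. These genes had 9 of their 21 regions there, beside 25.7% of all regions. GlyP, the glycogen phosphorylase, had regions 361 and 45 bp upstream on 2L, with CRTC scores of 22.9 and 22.5 and CREB scores of 24.6 and 16.9. Pgk, the phosphoglycerate kinase, had a strong region 5 bp upstream (24.6 for CRTC and 28.1 for CREB) and weaker regions 137 and 143 bp from TSSs (2.33 and 2.69). Ald, the aldolase, had a region 289 bp upstream with a CRTC score of 14.2. Gapdh1, Gapdh2, ImpL3 and PyK had regions across a TSS, and Tpi had a region 2 bp downstream.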
